A study of Mus musculus with 16 samples.

Results

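The genes examined here build, cross-link or break down the extracellular matrix of the liver, or mark the hepatic stellate cells that make much of it. A fixed list of 45 genes, chosen with earlier results of these data known, was followed through the livers of 16 mice, 1 array per mouse. For each gene the probe with the brightest mean signal among those whose RefSeq accession matched the gene was used. A probe was found for 44 of the 45, Lamc1 being without a match, and 42 passed the filter on dim probes, Lox and Mmp12 being the exceptions, of 13306 genes that passed it in the whole series. The list was split into 10 roles, from fibrillar collagens to stellate cell markers, and 2 lists were then set side by side: 8 genes known from quiescent stellate cells and 15 known from fibrosis.

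All mice were male and were given DEN (diethylnitrosamine), which causes liver cancer, when 5 weeks old, at a dose of 90 mg/kg. Wild type (WT) mice were C57BL/6J, and the KO mice carried a targeted null allele of Gadd45b, from a stock whose name holds a strain besides C57BL/6. Within each genotype, 4 mice drank plain water (WT DEN and KO DEN) and 4 drank phenobarbital (PB, a tumour promoter that activates the nuclear receptor CAR) at 0.5 g/l from 7 weeks of age (WT DEN + PB and KO DEN + PB). Livers were taken at 57 weeks. According to the study's methods, the pieces came from non-tumorous regions. No group without DEN was among these arrays, so every value is from a carcinogen-treated liver. Strain background and the null allele cannot be told apart if the lines differed in background.

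Signals are log2 values relative to the 75th percentile of the probes of the same array, so 0 is the level of a fairly bright probe and 1 unit is a doubling; the values of different probes are not comparable with each other. Across the arrays that percentile lay between 137 and 294 fluorescence units, and the share of spots well above background was 58.3% to 67.7%. The arrays lay on 4 slides, and both DEN + PB groups had 1 array on each, while KO DEN was missing from slide 2 and WT DEN from slide 4. Readings of the targeted gene followed the labels: Gadd45b was well above background on no KO array, and WT was at least 23.6-fold brighter under DEN and at least 44.8-fold brighter under DEN + PB.

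In the healthy liver, stellate cells lie between hepatocytes and the sinusoidal endothelium and store retinol as esters, which Lrat makes. When injured they lose these stores, turn on smooth muscle actin and secrete fibrillar collagens, which lysyl oxidases cross-link, metalloproteinases cleave and TIMPs protect from cleavage. Basement membrane proteins such as type IV collagen, laminin and nidogen are made by stellate and endothelial cells along the sinusoids and around vessels and ducts. Liver pieces hold all of these cells, so in these data fewer cells of a type and less RNA per cell cannot be told apart.

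Promoter sequence is shown for 3 genes that were lower in KO + PB livers and stand for a fibrillar collagen, a basement membrane protein and a quiescent stellate cell enzyme. Each is the run of 120 bases that ends just before the RefSeq start of the gene (build GRCm38.p6), 5′ to 3′ on the strand of the gene, and capitals mark a CCAAT box (CCAAT or its complement) or a GC box (GGGCGG or its complement), none of which overlapped.
Col1a2, chr6:4505498-4505617, plus strand: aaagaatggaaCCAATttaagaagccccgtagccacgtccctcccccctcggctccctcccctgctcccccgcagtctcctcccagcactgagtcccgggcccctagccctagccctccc
Nid1, chr13:13437482-13437601, plus strand: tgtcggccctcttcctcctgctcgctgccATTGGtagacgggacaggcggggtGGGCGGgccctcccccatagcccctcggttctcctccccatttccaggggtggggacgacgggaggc
Lrat, chr3:82903975-82904094, minus strand: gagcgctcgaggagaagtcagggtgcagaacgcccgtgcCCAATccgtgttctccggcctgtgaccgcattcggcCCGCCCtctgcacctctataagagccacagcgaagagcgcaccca
A promoter was given for 30 of the 45 genes and for 13 of the 18 that were lower in KO than in WT under DEN + PB. Over the 250 bases before the start, on both strands, a GC box stood in 8 of these 13 and in 18 of the 30, against 35.4% of 27025 promoters, so it was about as common among all listed genes as among those lower in KO. A CCAAT box stood in 7 of the 13 and in 11 of the 30, against 37.5%. The letters TATAAA, found in 14.3% of all promoters, and TGANTCA, the AP-1 site, found in 7.82%, were in none of the 13 windows and in 3 and 4 of the 30.

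Most calls on the list came from the genotype comparison under DEN + PB. Of the 42 genes tested, 18 were lower in KO than in WT and none was higher (limma, adjusted p under 0.05 over all probes and at least 1.5-fold), where 5.85% of all tested genes were lower and 1.76% higher. These were Col1a2 and Col5a2, the basement membrane genes Col4a1, Col4a2, Lamb1 and Nid1, Col6a3, Fbn1, Dcn, Lum, Loxl1, Mmp2, Timp3, and Lrat, Rgs5, Reln, Hgf and Pdgfra. The median log2 difference over the 42 was -0.71, with 36 below 0, against 0.03 over all tested genes. Because the list was chosen with earlier results of these data known, its excess over all genes is a description and not a test. In 23 of the 42 every KO array lay below every WT array, as did 9.87% of all tested genes, and these 23 included all 18 that were called. That separation by itself fixes the two-sided exact permutation p of the 18 at 0.0286, the smallest that 4 against 4 arrays allow. It also makes the KO array the lower on all 4 slides, so neither value adds support. Among the 39 genes well above background on all 16 arrays, 16 were called. Of all 12189 genes with such a probe, 635 were lower and 233 higher.

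This count depended on the background correction: with normexp on the uncorrected signals none of the 18 was called. The 18 kept their sign, and 19 of the 42 had an unadjusted p under 0.05, as did 1954 of all 24457 tested probes. After spots with an outlying local background were left out of that correction, 9 of the 18 were called. Of all 13306 tested genes, 280 were then lower and 149 higher.

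**Figure D1:**
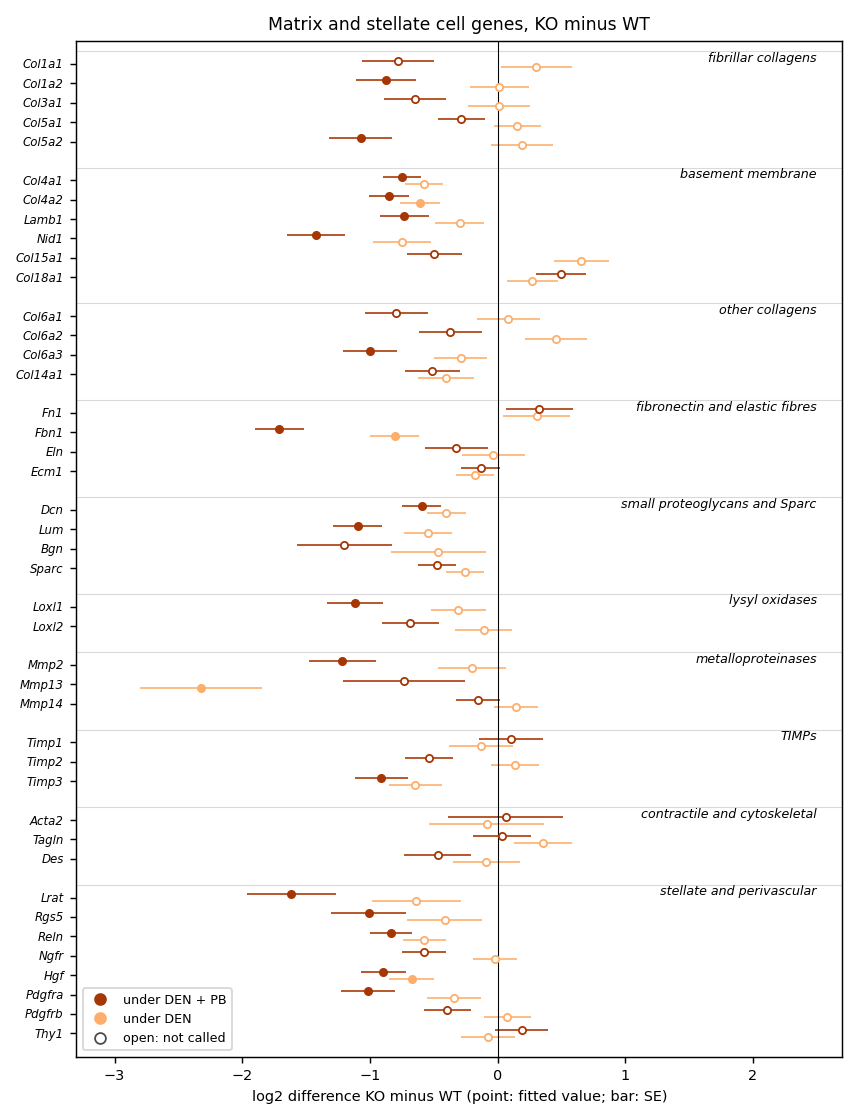
Log2 difference KO minus WT for the 42 genes tested, by role, under DEN + PB (dark) and under DEN (light); points are limma estimates from 4 mice a group, bars are SE, filled points were called. The 18 called under DEN + PB all lie left of 0, against 4 under DEN, and Mmp13 under DEN has only a bound because no KO DEN array was above background.

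Markers of other liver cells moved in the same comparison, where 5.85% of all tested genes were lower and 1.76% higher, with a median of 0.03. Of 16 macrophage markers, 12 were lower in KO under DEN + PB, with a median log2 difference of -1.29 over the list. Their summed linear signal, relative to the 75th percentile, ranged from 87.9 to 104 in WT DEN + PB and from 34.3 to 68.9 in KO DEN + PB. Itgam, among the 12, was well above background on only 1 of 4 KO DEN + PB arrays. Of 13 liver endothelial markers, 6 were lower (median -0.81), with summed signals of 67.0 to 86.4 and 39.9 to 45.8. Of 6 biliary markers, 4 were lower (median -0.99), with 3.02 to 4.02 and 2.32 to 2.60. Of 12 hepatocyte markers, 2 were higher and none lower (median 0.25). None of 9 vascular smooth muscle markers and none of 8 portal fibroblast and mesothelial markers was called in this comparison by limma, with 2 and 4 of them at an unadjusted p under 0.05. Of all 24457 tested probes, 5622 had such a p. The markers counted here are those that passed the filter, which itself requires a group with all 4 arrays well above background. The part of these cells in the matrix gene differences was not tested. Among 13 further stellate cell markers, Colec10, Vim and Tcf21 were lower, with a median of -0.37 over the list.

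**Figure D2:**
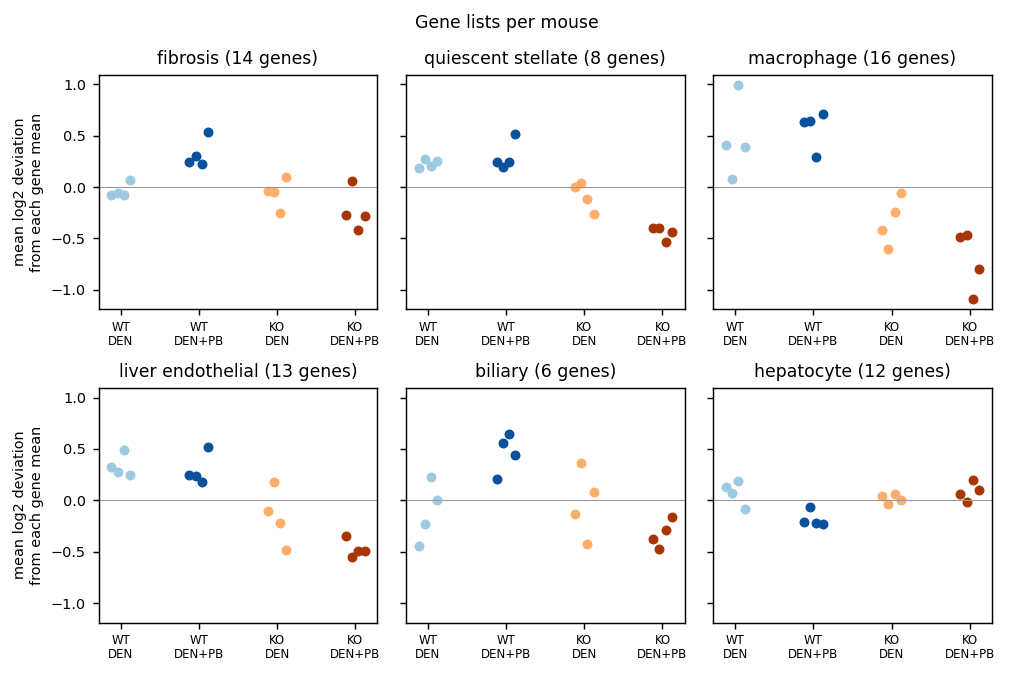
Mean log2 deviation of 6 gene lists from each gene's mean over 16 arrays, 1 point per mouse. The fibrosis list sits highest in WT DEN + PB (0.22 to 0.54), the quiescent stellate list is higher in both WT groups (0.19 to 0.51) than in both KO groups (-0.53 to 0.04), and the macrophage, endothelial and biliary lists are also lower in KO DEN + PB than in WT DEN + PB.

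Fibrillar collagens form the cable-like fibres that accumulate in scarred tissue. Col1a2, the second chain of type I collagen, read 1.02, 1.03, 1.04 and 1.26 in WT DEN and 1.39, 1.65, 1.64 and 2.71 in WT DEN + PB. In KO it read 1.32, 1.23, 0.71 and 1.15 under DEN and 0.84, 1.24, 0.91 and 0.90 under DEN + PB. The WT DEN + PB mice stood above every other mouse, WT DEN + PB replicate 4 far above the rest, and KO was lower than WT by a log2 difference of -0.87 ± 0.23 (SE), adjusted p = 0.031. Under DEN alone the genotypes differed by 0.01 ± 0.23 (limma adjusted p = 0.981). Col5a2, a chain of the minor type V collagen that seeds fibrils, read -3.92, -3.66, -3.69 and -3.86 in WT DEN and -3.08, -3.10, -3.11 and -2.78 in WT DEN + PB. Its KO values were -4.11, -3.36, -3.61 and -3.29 under DEN and -3.55, -3.61, -4.70 and -4.50 under DEN + PB, the lowest of them on an array where the probe was not well above background. Again the WT DEN + PB arrays stood apart at the top, and KO was 2.1-fold lower than WT under DEN + PB (adjusted p = 0.014).

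The other fibrillar collagens shared the direction without being called. Col1a1, the main chain of type I collagen, ranged from -0.12 to 1.12 in WT DEN + PB and from -0.76 to -0.01 in KO DEN + PB, a log2 difference of -0.78 ± 0.28 (adjusted p = 0.107). These ranges overlapped only between WT replicates 1 and 3 and KO replicate 2. A further Col1a1 probe gave 0.98 under DEN (limma adjusted p = 0.172) and -0.62 under DEN + PB (limma adjusted p = 0.368), neither called. Col3a1, the collagen of reticular fibres, gave -0.65 ± 0.24 (adjusted p = 0.123) and Col5a1 gave -0.28 ± 0.18 (adjusted p = 0.378). WT DEN + PB replicate 4 had the highest value of all 16 mice for each of the 5 genes. Without it 14 of the 18 genes were called under DEN + PB, where 525 of all 13306 tested genes were lower and 145 higher.

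Basement membrane genes included some that separated the genotypes under both treatments. Col4a1 and Col4a2, the chains of the common type IV collagen network, lay lower in every KO mouse than in every WT mouse under both treatments. Col4a1 read 0.32, 0.56, 0.33 and 0.59 in WT DEN, 0.56, 0.35, 0.69 and 0.60 in WT DEN + PB, -0.04, -0.12, -0.19 and -0.16 in KO DEN and 0.04, -0.07, -0.63 and -0.14 in KO DEN + PB. The difference was -0.75 ± 0.15 under DEN + PB (adjusted p = 0.00682), and -0.58 ± 0.15 under DEN, where the adjusted p was 0.049 and the fold, 1.49, fell just short of 1.5. Col4a2 read 0.12, 0.24, -0.23 and 0.34 in WT DEN, 0.44, 0.24, 0.40 and 0.25 in WT DEN + PB, -0.27, -0.64, -0.60 and -0.44 in KO DEN and -0.47, -0.26, -0.81 and -0.52 in KO DEN + PB. It was lower in KO by 0.85 ± 0.16 under DEN + PB (adjusted p = 0.00384) and by 0.61 ± 0.16 under DEN (adjusted p = 0.0469). On the slides that held both DEN genotypes the Col4a2 difference was -0.76 and -0.04. Second probes of Col4a1 and Col4a2 were also lower in KO under DEN + PB, at -0.61 and -1.08. Under DEN the second Col4a2 probe gave -0.58 and was not called (adjusted p = 0.203), and the call of the brightest probe was kept under 8 of 28 alternatives.

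Nidogen 1, encoded by Nid1, links the laminin and type IV collagen networks. Its probe read 1.26, 1.61, 2.11 and 1.29 in WT DEN and 1.54, 1.82, 2.19 and 2.40 in WT DEN + PB, against 0.84, 1.06, 0.69 and 0.68 in KO DEN and 0.42, 0.15, 0.74 and 0.94 in KO DEN + PB. No KO mouse reached any WT mouse, and the difference was -1.42 ± 0.23 under DEN + PB, a 2.68-fold lower signal (adjusted p = 0.00151), and -0.75 ± 0.23 under DEN, which was not called (adjusted p = 0.082). Lamb1, a laminin beta chain, read -0.55, 0.26, -0.02 and -0.17 in WT DEN and -0.11, -0.26, 0.15 and 0.20 in WT DEN + PB. Its KO readings were -0.0024, -0.43, -0.55 and -0.70 under DEN and -0.85, -0.75, -0.89 and -0.44 under DEN + PB. The DEN groups overlapped, the DEN + PB groups did not, and the difference there was -0.73 ± 0.19 (adjusted p = 0.0313).

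Col15a1 departed from this pattern. It encodes a collagen that anchors basement membranes to the matrix beneath, and it was the single gene of the list called for PB, where 0.654% of all tested genes rose and 0.0827% fell in WT. The WT DEN values were -3.24, -2.66, -3.66 and -3.21 and the WT DEN + PB values -1.93, -2.07, -2.10 and -1.62, with no overlap and a rise of 1.26 ± 0.21 on the log2 scale (limma adjusted p = 0.00663). The lack of overlap by itself fixes the exact permutation p at 0.0286. In KO the values were -2.29, -2.85, -2.56 and -2.45 under DEN and -1.94, -2.71, -2.48 and -2.58 under DEN + PB, a difference of 0.11 ± 0.21 (adjusted p = 0.936). The PB effects in the genotypes differed by 1.15 ± 0.30, which did not pass the threshold over all probes (adjusted p = 0.387). The KO DEN mice, at a mean of -2.54, lay between the WT groups at -3.19 and -1.93. Within the 3 slides that held both WT groups the rise was 1.17 to 1.73, and the call was lost under both normexp settings and with the unscaled series table. Col18a1, the source of endostatin and strongly expressed by hepatocytes, was the member with the largest positive KO difference under DEN + PB, 0.50 ± 0.20, not called (adjusted p = 0.148). A further Col18a1 probe gave 0.59 under DEN + PB (limma adjusted p = 0.0646) and 0.56 under DEN (limma adjusted p = 0.104), neither called.

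**Figure D3:**
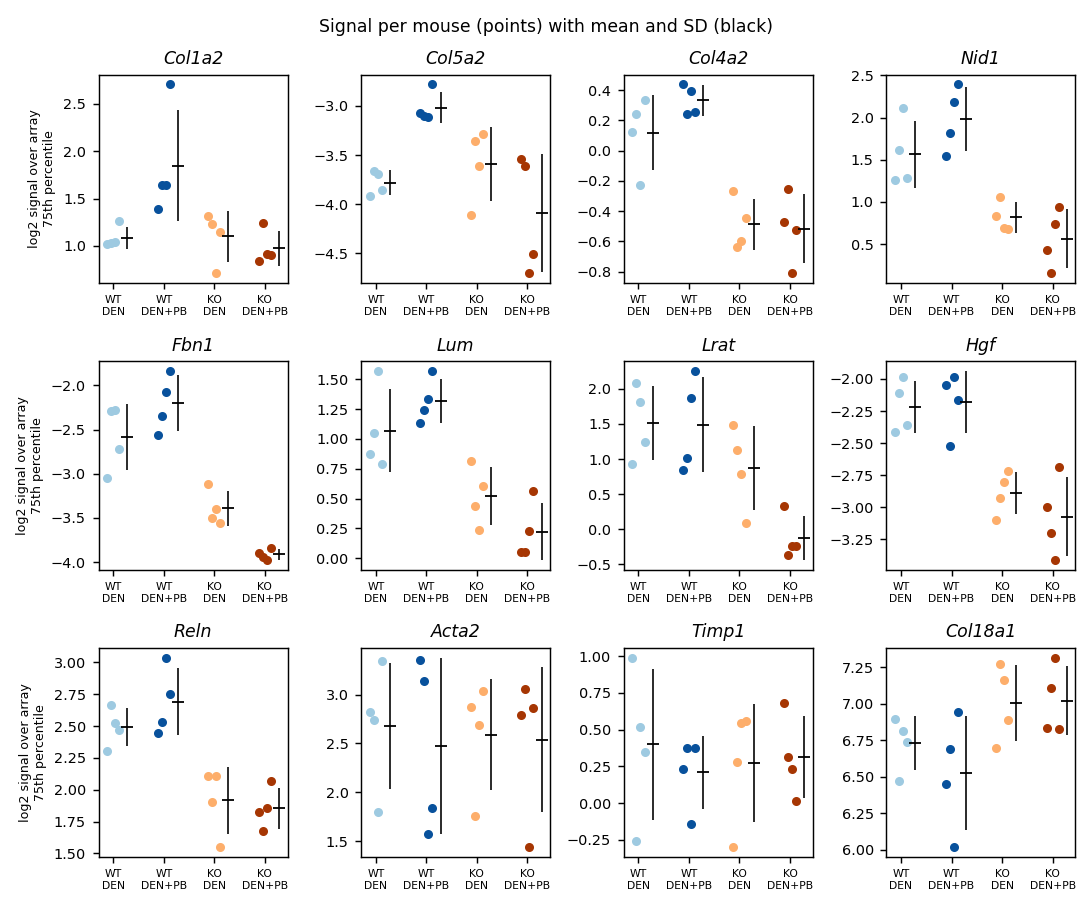
Log2 signal over the 75th percentile of each array, for 12 genes in the 16 mice (points) with the mean and SD of each group (black); each panel has its own vertical axis. Col4a2, Nid1, Fbn1, Hgf and Reln are lower in every KO than in every WT mouse of the same treatment, Col1a2 and Col5a2 stand out in WT DEN + PB, and Acta2 and Timp1 overlap throughout.

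Type VI collagen forms beaded filaments around cells. Col6a3, its largest chain, read -0.74, -0.09, 0.13 and -0.03 in WT DEN and 0.11, 0.46, 0.48 and 0.95 in WT DEN + PB. KO mice read -0.15, -0.43, -0.64 and -0.68 under DEN and -0.75, -0.31, -0.45 and -0.48 under DEN + PB. All WT DEN + PB mice were above 0 and all KO mice below it, and the genotypes differed by -1.0 ± 0.21 under DEN + PB (adjusted p = 0.00838). Col6a1 also separated the DEN + PB groups, at -0.79 ± 0.25, without being called (adjusted p = 0.0657). Col6a2 (-0.37 ± 0.24) and the fibril-associated Col14a1 (-0.51 ± 0.22) overlapped between the genotypes.

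Fibrillin 1, encoded by Fbn1, builds the microfibrils that carry elastin and hold latent TGF-beta. It showed the largest fold of the list under DEN + PB. WT mice read -3.05, -2.29, -2.28 and -2.73 under DEN and -2.56, -2.34, -2.07 and -1.84 under DEN + PB. KO mice read -3.12, -3.50, -3.40 and -3.56 under DEN and -3.89, -3.95, -3.98 and -3.84 under DEN + PB. Every KO mouse was below every WT mouse, and KO was lower by 1.71 ± 0.19 under DEN + PB, 3.28-fold (adjusted p = 0.000107), and by 0.80 ± 0.19 under DEN, 1.75-fold (adjusted p = 0.0329). A second probe was lower by 1.53 under DEN + PB and gave -0.98 under DEN, not called (adjusted p = 0.0536), and the call of the brightest probe under DEN was kept under 16 of 28 alternatives. With PB the Fbn1 signal differed by 0.38 ± 0.19 in WT and -0.52 ± 0.19 in KO, neither of them called, and the interaction was 0.91 ± 0.27 (adjusted p = 0.455). Fibronectin (Fn1), elastin (Eln) and Ecm1, a secreted binding partner of matrix proteins, showed no call in any comparison, with KO minus WT under DEN + PB at 0.33 ± 0.26, -0.33 ± 0.25 and -0.13 ± 0.15. A pair of further Fn1 probes gave -0.32 and 0.74 in that comparison, so the probes of Fn1 disagreed in sign.

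Decorin and lumican are small leucine-rich proteoglycans that coat collagen fibrils. Dcn read 6.26, 6.09, 6.19 and 5.78 in WT DEN, 5.90, 5.94, 6.20 and 6.15 in WT DEN + PB, 5.81, 5.86, 5.62 and 5.42 in KO DEN and 5.54, 5.36, 5.29 and 5.62 in KO DEN + PB. Its DEN + PB groups were apart by -0.60 ± 0.15, only 1.51-fold (adjusted p = 0.0249). Lum read 0.87, 1.05, 1.57 and 0.79 in WT DEN and 1.13, 1.25, 1.33 and 1.57 in WT DEN + PB. KO mice gave 0.81, 0.44, 0.23 and 0.61 under DEN and 0.05, 0.05, 0.22 and 0.56 under DEN + PB, so the groups overlapped under DEN and not under DEN + PB. Lum was lower in KO by 1.10 ± 0.19 under DEN + PB, 2.14-fold (adjusted p = 0.00245). Biglycan (Bgn), of the same family, had a difference of -1.20 ± 0.37 with a wide spread (adjusted p = 0.0638). Sparc, a collagen-binding glycoprotein, gave -0.47 ± 0.15 on its brightest probe, not called (adjusted p = 0.0676), and -0.84 on another that was called.

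Lysyl oxidases cross-link collagen and elastin. Loxl1, which acts mainly on elastin, read -2.72, -2.54, -2.70 and -2.0 in WT DEN and -1.78, -1.99, -1.83 and -1.86 in WT DEN + PB. In KO it read -2.38, -3.06, -3.24 and -2.50 under DEN and -3.17, -2.50, -3.12 and -3.14 under DEN + PB. WT DEN + PB stood above all other groups, 2.17-fold over KO DEN + PB (adjusted p = 0.00555). Loxl2 gave -0.69 ± 0.22 (adjusted p = 0.0756), and a further probe gave -0.16.

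Among the matrix-degrading enzymes, Mmp2, the gelatinase made by stellate cells, read -3.81, -3.54, -3.43 and -2.86 in WT DEN and -2.70, -3.01, -2.58 and -2.88 in WT DEN + PB. KO mice read -3.25, -4.27, -3.72 and -3.21 under DEN and -4.19, -3.52, -4.54 and -3.80 under DEN + PB, with 3 of the last 4 well above background. KO was lower by 1.22 ± 0.26 under DEN + PB (adjusted p = 0.0102). Mmp13, the main collagenase of rodents, was a dim probe that read -4.45, -5.12, -4.16 and -4.51 in WT DEN and -7.32, -5.85, -7.24 and -7.13 in KO DEN. All 4 WT DEN arrays and 0 of 4 KO DEN arrays were well above background, so WT DEN was at least 1.60-fold higher. The probe passed the filter only through WT DEN, the group where it was high. Its limma call (adjusted p = 0.0169, kept under 21 of 27 alternatives) therefore adds no support to that bound. Under DEN + PB it read -4.72, -5.18, -4.82 and -3.36 in WT, with 3 arrays above background, and -4.62, -6.78, -4.67 and -4.96 in KO, with 1 above background, and the genotypes overlapped. In the WT DEN + PB group 3 of 4 arrays had Mmp12, the macrophage elastase, well above background, and in the other groups no array did. Its WT DEN + PB mean was at least 1.83-fold above WT DEN and at least 1.35-fold above KO DEN + PB, and it was not tested because it did not pass the filter. That mean includes the array not well above background, at its measured signal. The Mmp12 ranges overlapped between WT DEN + PB (-5.52 to -3.86) and WT DEN (-6.82 to -5.24). Mmp14, a membrane-bound activator of Mmp2, was not called in any comparison.

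Of the inhibitors, Timp3, which binds to the matrix, read 1.18, 1.48, 1.16 and 1.37 in WT DEN and 1.24, 1.47, 1.68 and 2.07 in WT DEN + PB. KO mice read 1.16, 0.75, 0.51 and 0.19 under DEN and 0.68, 0.49, 0.76 and 0.87 under DEN + PB. The KO DEN + PB mice lay below every WT mouse, and the difference under DEN + PB was -0.91 ± 0.21 (adjusted p = 0.0127). Timp2 separated the DEN + PB groups by -0.54 ± 0.19 without a call (adjusted p = 0.0957). Timp1, which rises in injured liver, overlapped between all groups, at 0.10 ± 0.25 (adjusted p = 0.843).

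The contractile genes gave no call in any comparison. Acta2, smooth muscle actin and the usual marker of activated stellate cells, ranged from 1.58 to 3.36 in WT DEN + PB and from 1.44 to 3.05 in KO DEN + PB, a difference of 0.06 ± 0.45 (adjusted p = 0.954). A further Acta2 probe gave -0.38, and with an SE of 0.45 on the brighter probe a difference as large as that of Col1a2 could not have been called. Tagln, another smooth muscle gene, gave 0.03 ± 0.23 and -0.39 on another probe, and the intermediate filament gene Des gave -0.47 ± 0.26.

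Stellate cell genes included the second largest fold of the list. Lrat, which esterifies retinol for storage, read 0.92, 2.08, 1.81 and 1.24 in WT DEN and 0.84, 1.01, 1.86 and 2.26 in WT DEN + PB. The KO values were 1.49, 1.13, 0.79 and 0.09 under DEN and 0.33, -0.37, -0.24 and -0.23 under DEN + PB. Replicates 2, 3 and 4 of KO DEN + PB were the lowest of the 16 mice, all of that group lay below every WT mouse, and KO was lower than WT under DEN + PB by 1.62 ± 0.35, 3.07-fold (adjusted p = 0.00978). Its other probe gave -0.80 in this comparison and was not called (adjusted p = 0.0988). In KO, PB and DEN-only mice differed by -1.0 ± 0.35 (adjusted p = 0.199), and in WT by -0.02 ± 0.35. Reln, the secreted protein reelin, read 2.30, 2.66, 2.52 and 2.47 in WT DEN, 2.45, 2.53, 3.04 and 2.75 in WT DEN + PB, 2.11, 1.90, 2.11 and 1.55 in KO DEN and 1.83, 1.67, 1.86 and 2.07 in KO DEN + PB. All KO mice were below all WT mice, and the difference was -0.84 ± 0.17 under DEN + PB (adjusted p = 0.00641) and -0.57 ± 0.17 under DEN (adjusted p = 0.071).

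Hgf, the hepatocyte growth factor that stellate and endothelial cells secrete, also separated the genotypes under both treatments. WT mice read -2.41, -2.11, -1.99 and -2.36 under DEN and -2.05, -2.52, -1.98 and -2.16 under DEN + PB. KO mice read -3.10, -2.93, -2.81 and -2.72 under DEN and -3.00, -3.20, -3.41 and -2.69 under DEN + PB. KO was lower by 0.67 ± 0.18 under DEN (adjusted p = 0.0494) and by 0.90 ± 0.18 under DEN + PB (adjusted p = 0.00586), and a second probe was lower by 1.38 under DEN + PB. Under DEN that second probe gave -0.77 and was not called (adjusted p = 0.252), and the call of the brightest probe was kept under 6 of 28 alternatives. Rgs5, a pericyte gene, read 0.25, 0.02, -0.63 and 0.12 in WT DEN, 0.07, -0.19, -0.64 and -0.43 in WT DEN + PB, -0.50, -0.48, 0.0046 and -0.92 in KO DEN and -0.72, -1.11, -2.23 and -1.17 in KO DEN + PB. Its KO DEN + PB mice lay below all WT mice, by -1.01 ± 0.29, close to the threshold (adjusted p = 0.0483), and it was called under 8 of 28 alternatives. Pdgfra, a receptor for platelet-derived growth factors on mesenchymal cells, read -1.24, -0.67, -0.54 and -1.0 in WT DEN and -0.98, -0.93, -0.41 and -0.28 in WT DEN + PB. In KO it read -0.91, -1.02, -1.49 and -1.41 under DEN and -1.72, -2.0, -1.49 and -1.44 under DEN + PB, lower by 1.01 ± 0.21 than in WT under DEN + PB (adjusted p = 0.00837). The related receptor Pdgfrb (-0.39 ± 0.18) and the nerve growth factor receptor Ngfr (-0.58 ± 0.17, adjusted p = 0.052) were not called, a further Ngfr probe giving -0.16 (adjusted p = 0.72), nor was Thy1, a fibroblast surface protein, at 0.19 ± 0.21.

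Set side by side, the quiescent stellate list and the fibrosis list both lay lower in KO under DEN + PB, where 5.85% of all tested genes were called lower. Of the 8 quiescent genes 8 had a negative KO minus WT difference and 4 were called, Lrat, Reln, Hgf and Rgs5, with a median of -0.71. Of the 14 fibrosis genes tested 10 were negative and 5 were called, Col1a2, Col5a2, Loxl1, Mmp2 and Lum, with a median of -0.67. Under DEN alone the medians were -0.30 and -0.04, and 1 quiescent gene, Hgf, and no fibrosis gene was called by limma, where 1.74% of all tested genes were lower. At an unadjusted p under 0.05 there were 2 quiescent genes and 1 fibrosis gene, where 4977 of all 24457 tested probes had such a p. For PB in WT the medians were 0.09 and 0.29, and for PB in KO -0.21 and -0.14, without a call by limma in either list and with 0 and 6 genes in WT, and 3 and 0 in KO, at an unadjusted p under 0.05. Over all 24457 tested probes the counts at that p were 1782 in WT and 2959 in KO. The difference between the lists was not tested.

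**Figure D4:**
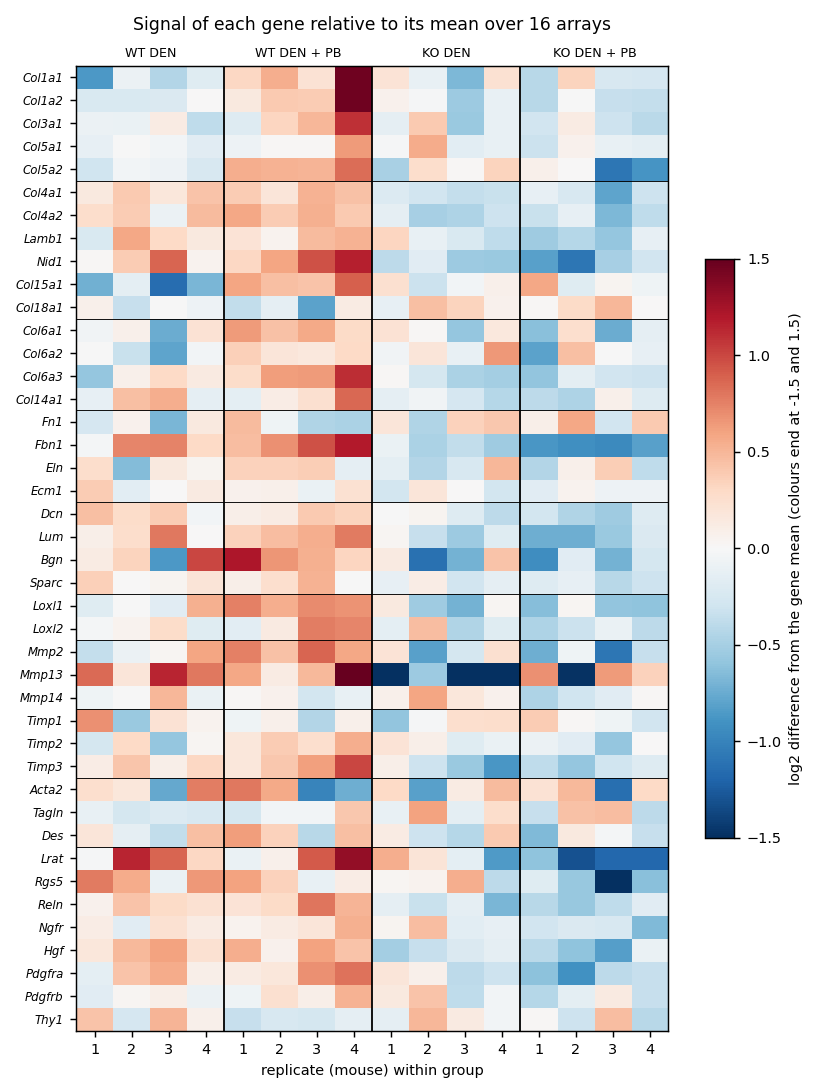
Log2 signal of the 42 genes tested in each of the 16 mice relative to the gene's own mean, red above and blue below, with rows by role and columns by group. Most rows are red in WT DEN + PB and blue in KO DEN + PB, replicate 4 of WT DEN + PB is the reddest column for Col1a1, Col1a2 and Col3a1, and the Acta2, Timp1 and Fn1 rows follow no group.

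The remaining comparisons gave few calls. They share arrays with the comparison above, so their values are not independent of it. Between the genotypes under DEN alone, 4 of 42 genes were called, all lower in KO, Col4a2, Fbn1, Hgf and Mmp13, where 1.74% of all tested genes were lower and 1.02% higher. Mmp13 passed the filter only through WT DEN, and 3 were called among the 39 genes well above background on all 16 arrays. Of all 12189 genes with such a probe, 235 were lower and 143 higher. The median log2 difference was -0.15, and 7 genes had no overlap, all lower in KO, against 6.36% of all tested genes. With slide as a block, or in the linear model without moderation, none of the 4 was called, and 10 and 11 of the 42 then had an unadjusted p under 0.05. Of all 24457 tested probes, 4033 and 4793 had such a p in these settings. The count was also 0 without KO DEN replicate 4.

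With PB in WT, 33 of the 42 values were positive, the median was 0.22 and 11 had an unadjusted p under 0.05, with Col15a1 as the only call. Such a p was found for 1782 of all 24457 tested probes. The WT groups did not overlap for 7 genes, Col1a1, Col1a2, Col5a2, Col15a1, Col6a1, Col6a2 and Loxl1, all higher with PB, where 3.21% of all tested genes were. With PB in KO, 35 of 42 values were negative, with a median of -0.18. None was called by limma, where 0.872% of all tested genes were lower and 1.26% higher. By unadjusted p under 0.05 there were 7, where 2959 of all 24457 tested probes had such a p. The model without moderation called none either. Fbn1, Mmp14 and Ngfr had no overlap, all lower with PB, against 4.01% of all tested genes. The difference between the PB effects, WT minus KO, was positive for 35 of 42 genes with a median of 0.45. It had an unadjusted p under 0.05 for 14 of the 42 and for 1474 of all 24457 tested probes. None was called, with or without moderation, nor was any of the 13306 genes (0%).

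Beyond the 45, 4 further lists of matrix biology were counted for KO minus WT under DEN + PB, to be read against the 5.85% of all tested genes that were lower. Of 43 other matrix proteins, 10 were lower and none higher, among them Dpt (-1.55), a small collagen-binding protein, and Ogn (-1.22), a proteoglycan. Of 25 genes for collagen processing and matrix turnover, 3 were lower, Pcolce2 (-1.88), an enhancer of procollagen processing, Ctsk (-1.24), the protease cathepsin K, and Mmp11 (-0.71). Of 15 matrix receptors, 4 were lower, led by the collagen receptor Ddr2 (-1.03), then Itga6 (-1.03) and Itga8 (-0.77), both integrin chains. The receptor list as a whole did not move, with 7 positive and 8 negative differences and a median of -0.0077. The medians were -0.42 for the other matrix proteins, -0.33 for processing and turnover and -0.50 for the profibrotic signals. Of 15 profibrotic signals, 5 were lower, led by Pdgfd (-1.85), a platelet-derived growth factor, Tgfb3 (-0.92) and Pdgfc (-0.92). In KO DEN + PB, Pdgfd and Ctsk were well above background on only 2 of 4 arrays and Dpt on 3 of 4. For Dpt and Pdgfc the groups overlapped. No gene of these lists was called higher.

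In the other comparisons these lists gave few calls. With PB in WT, where 0.654% of all tested genes rose, Col12a1 (1.51), Prg4 (0.90), a lubricating proteoglycan, and Ltbp3 (0.65), which binds latent TGF-beta, rose. Col12a1 was well above background on only 2 of 4 WT DEN arrays. With PB in KO, where 1.26% of all tested genes rose and 0.872% fell, Prg4 (0.66) rose and Nid2 (-0.96), the other nidogen, and Bambi (-0.77), a decoy receptor of the TGF-beta family, fell. Under DEN alone, where 1.02% of all tested genes were higher in KO and 1.74% lower, Col5a3 (0.70) was higher and Pcolce2 (-1.09) lower. Among the cell markers, Krt7 and Krt19, of 6 biliary markers, rose with PB in WT, and Hhip, of 13 further stellate markers, fell with PB in KO. Under DEN, 6 of 16 macrophage and 2 of 13 endothelial markers were lower in KO, and Msln, of 8 portal fibroblast and mesothelial markers, was higher. Msln was well above background on only 3 of 4 KO DEN and 1 of 4 WT DEN arrays. Hhip was so on only 2 of 4 KO DEN + PB arrays. For both genes the groups compared overlapped.

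Chromosome 10 carries Gadd45b itself. Of the 42 genes, 6 lie on it, Col18a1, Col6a1, Col6a2, Dcn, Lum and Timp3, and 3 of them, Dcn, Lum and Timp3, were among the 18. This 3 of 6 stands beside 18 of 42 for the whole list. The share over all tested genes of the chromosome was not computed, and an effect of position was not tested.

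Within groups, the variation between mice was followed for Col1a1 after the group means were taken off. Col1a1 and Col1a2, the chains of a single collagen, varied together over 16 mice (Pearson r = 0.859, adjusted p = 0.0183 over 5 relations, permutation test within groups; Spearman rho = 0.868, adjusted p = 0.0083). Without WT DEN + PB replicate 4 and KO DEN + PB replicate 2, the arrays farthest from the median of Col1a1, r was 0.739. Col1a1 with Col3a1 gave r = 0.591 (adjusted permutation p = 0.183) and rho = 0.491 (adjusted p = 0.246), falling to r = 0.281 without those arrays. With Timp1 r was -0.274 (adjusted permutation p = 0.464) and rho -0.253 (0.625). With Acta2 r was 0.0214 (0.956) and rho 0.118 (0.709), and with Lrat r was 0.305 (0.464) and rho 0.215 (0.625).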

How the data were processed

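RNA from 16 livers, 4 per group, was hybridised to 1-colour Agilent arrays. Per the labels and file headers, the authors deposited Feature Extraction 12.0.3.1 output, whose processed signal is a background-corrected intensity, and a table of spot means, within 5e-04 percent of it and without scaling between arrays. Their normalization before testing was not given in the sources used here.

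Spots with an outlier mark (71 to 122 per array) were left out, none was saturated, and repeat spots were averaged. Log2 signals, after the 75th percentile of each array was subtracted, were fitted with limma 3.58.1 in R 4.3.3, with 4 group means over 16 arrays. To be tested, a probe needed at least 1 group whose 4 arrays all read well above background (24457 of 41174 probes). A gene was called at a Benjamini-Hochberg adjusted p under 0.05 over these probes and at least 1.5-fold. Errors are SE of the fit. A probe not above background in a whole group has only a bound: the brighter mean over the dimmer mean, taking on each array the higher of its own signal and the lowest signal above background. The fit was tested on simulated data. The number of arrays limits the precision.

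RefSeq accessions named 28223 probes (68.5%) through a gene table of GRCm38.p6. The members and lists were chosen with earlier results of these data known. Values per array are given for each member called in any comparison. For the other matrix lists up to 3 called genes per direction, those with the largest changes, are named, except 1 gene that is not reported here. Normexp (offset 50) used median spot signals, since the files held no mean signal, and the setting without outlying backgrounds was added after seeing the data. Replicate numbers did not pair the mice.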

Additional observations from a re-analysis of the deposited data

Results flagged for a closer look

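In 5 of 80 groups of 4 mice, taken over the members called in any comparison, the highest or lowest mouse stood apart from the other 3 by more than the critical value of Dixon's test allows, and chance gives about 1 in 20. Col1a2 was highest in WT DEN replicate 4 at 1.26, against 1.02 to 1.04 in the other mice of that group. Col5a2 was highest in WT DEN + PB replicate 4 at -2.78, against -3.11 to -3.08. Loxl1 was highest in KO DEN + PB replicate 2 at -2.50, against -3.17 to -3.12. Mmp13 was highest in KO DEN replicate 2 at -5.85, a reading below background like the rest of that group, and lowest in KO DEN + PB replicate 2 at -6.78, against -4.96 to -4.62.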

How the results depend on the processing

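The numbers of members called with PB in KO (0) and for the interaction (0) were the same under each processing alternative that was run, apart from leaving out arrays. With PB in WT, Col15a1 was not called (0 members) under normexp, under normexp without outlying backgrounds, or with the series table without scaling. Between genotypes under DEN, the 4 calls became 0 under both normexp settings, with slide as a block and without moderation, 1 with the series table, without a filter or with only the groups compared, and 2 with the mean of the probes of a gene. Under DEN + PB, the 18 calls became 0 under normexp and 9 without outlying backgrounds, and were 15 to 19 under the other processing alternatives. For all genes normexp left 12 higher and 24 lower in place of 234 and 778. Without outlying backgrounds the counts were 149 higher and 280 lower. The cause was not tested. No called member changed sign under any alternative. The unscaled series table moved the median of all genes under DEN + PB to -0.31, and the members' median was then -1.05. Its split of all called genes was 31 higher and 1054 lower.

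Leaving out 1 array at a time gave 1 call with PB in WT, 0 to 1 with PB in KO (1 without KO DEN + PB replicate 2), 0 for the interaction, 0 to 4 for the genotypes under DEN and 14 to 20 under DEN + PB. Under DEN the count was 0 without KO DEN replicate 4, 1 without KO DEN replicate 2 or 3 or WT DEN replicate 3, and 2 without WT DEN replicate 1, 2 or 4, WT DEN + PB replicate 1, 2 or 4, or KO DEN + PB replicate 1. The replicate block gave 1, 0, 0, 3 and 19 calls. Mice of the same number correlated in their deviations from -0.205 to 0.329, and 3 of 16 arrays correlated best with their own number. With the group means kept, Col1a1 and Col3a1 gave r = 0.736 (adjusted permutation p = 0.00602) and Col1a1 and Acta2 gave r = -0.0589. Probes near background, such as Mmp13 and Mmp12, are limited to bounds.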
